A study of Mus musculus with 14 samples.

Results

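The respiratory chain of the liver was described through the nuclear genes of its subunits, taken as the rows of the count table whose symbol begins with Nduf, Sdh, Uqcr, Cox or Atp5 and continues as the names of subunits of respiratory complexes I to V do. The rule matched 82 of the 25212 genes listed, all of which were found in GENCODE M21, and 77 of them had enough counts to be tested. Complex I was represented by 35 genes, complex II by 4, complex III by 8, complex IV by 16 (with *Ndufa4*, now counted as a complex IV subunit) and complex V, the ATP synthase, by 15. The remaining 4 matched by name although they encode no subunit of these complexes. *Cox7a2l* encodes a factor that helps complexes III and IV associate, *Atp5s* and *Atp5sl* (named *Dmac2* in GENCODE M21) encode factors rather than subunits, and *Atp5l2* is annotated as a processed pseudogene. *Cox4i2*, *Cox6a2*, *Cox6b2*, *Cox8b* and *Atp5l2* did not pass the filter on low counts and are given as counts only.

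RNA came from 14 livers of male C57BL/6 mice, 1 library per liver and 1 liver per mouse. All mice were kept on the high-fat diet (HFD) throughout, so that no lean liver entered a comparison. The 5 diet-induced obese (DIO) mice had neither an operation nor sham surgery, the 4 GB-IL mice had the gallbladder joined to the ileum with the common bile duct ligated, and the 5 RYGB mice had a Roux-en-Y gastric bypass. The labels place all livers at 8 weeks after surgery or the matching time without surgery, and give no age and no batch. The total count per liver was between 18223135 and 28656631. Hepatocyte markers were abundant in every liver, at 102084 to 168016 CPM (counts scaled to the size of the library) over 9 genes, whereas a list of 15 striated muscle genes summed to 2201 CPM in GB-IL liver 1 and to between 0.996 and 8.06 CPM in the other 13 livers. Exocrine pancreas genes behaved alike, with 1260.0 CPM in GB-IL liver 1 and at most 2.39 CPM elsewhere. GB-IL livers 1 and 2 stood apart from all others on the first principal component (134 and 106, against -45.7 to 20.1 in the remaining 12), and for the main results that rest on them the value without both is given as well.

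The respiratory chain passes electrons from NADH (through complex I) and from succinate (through complex II) to ubiquinone, then through complex III and cytochrome c to complex IV, where oxygen is reduced. The protons pumped on the way drive complex V, which makes ATP. Most subunits are encoded in the nucleus and imported, the few remaining ones are encoded by mitochondrial DNA, and the subunits of a complex assemble in fixed ratios. Hepatocytes are rich in mitochondria and use the chain when they oxidise the fatty acids that reach the liver.

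Nuclear respiratory genes are known for promoters that bind NRF1, GABP, YY1 and ERR proteins, so the RefSeq promoters (GRCm38.p6) were searched for a short core of each motif on both strands. A window of 300 bases, 250 before and 50 after the start, could be matched for 65 of the 82 genes. Their promoter was the one nearest to the start in GENCODE M21, at most 1000 bases away. For the genes at large a single promoter per gene was taken, that with the lowest coordinate, so the shares compared rest on promoters chosen in unlike ways. The NRF1 core GCGCNTGCG was found in 21 of the 65 (32.3%), compared with 6.45% of all 27025 promoters and 13.2% of the 10031 promoters whose gene passed the filter on low counts. The YY1 core AANATGGCG was found in 9 (13.8%, against 2.51% of all promoters and 5.2% of those of genes tested), the ERR core TCAAGGTCA in 2 (3.1%, against 0.41% and 0.3%) and the GABP core CCGGAAGT in 5 (7.7%, against 3.93% and 7.8%). The NRF1 core is nearly a palindrome, so that a full site can match on both strands at adjoining positions, as in *Cox6a1*. A match describes letters and is not evidence of binding. The 250 bases before the start are shown for a gene of each complex whose promoter held a match there, 5′ to 3′ on the strand of the gene, with matches to the NRF1 or GABP core in capitals.
Ndufs5, chr4:123718187-123718436, minus strand: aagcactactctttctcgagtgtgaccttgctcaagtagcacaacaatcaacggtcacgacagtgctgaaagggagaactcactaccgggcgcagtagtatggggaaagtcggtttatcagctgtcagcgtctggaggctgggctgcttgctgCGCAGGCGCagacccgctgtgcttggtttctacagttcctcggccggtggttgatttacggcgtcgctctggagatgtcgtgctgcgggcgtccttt
Sdha, chr13:74350241-74350490, minus strand: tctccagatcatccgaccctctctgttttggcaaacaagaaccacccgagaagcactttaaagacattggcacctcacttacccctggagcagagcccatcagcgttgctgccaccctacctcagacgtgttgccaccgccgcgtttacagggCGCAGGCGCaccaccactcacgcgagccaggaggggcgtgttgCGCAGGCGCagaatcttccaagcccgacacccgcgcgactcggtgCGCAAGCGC
Uqcrh, chr4:116075071-116075320, minus strand: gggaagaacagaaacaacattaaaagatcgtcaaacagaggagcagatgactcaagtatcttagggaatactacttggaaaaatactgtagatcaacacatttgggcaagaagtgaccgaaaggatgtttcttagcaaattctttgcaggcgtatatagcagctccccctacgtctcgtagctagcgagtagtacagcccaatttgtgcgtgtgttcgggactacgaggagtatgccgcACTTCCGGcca
Cox6a1, chr5:115348959-115349208, minus strand: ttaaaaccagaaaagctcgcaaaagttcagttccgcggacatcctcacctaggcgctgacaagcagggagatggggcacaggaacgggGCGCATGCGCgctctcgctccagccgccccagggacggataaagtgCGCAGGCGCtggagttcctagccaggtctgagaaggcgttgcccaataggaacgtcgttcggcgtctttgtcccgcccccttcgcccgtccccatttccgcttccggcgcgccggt
Atp5h, chr11:115419920-115420169, minus strand: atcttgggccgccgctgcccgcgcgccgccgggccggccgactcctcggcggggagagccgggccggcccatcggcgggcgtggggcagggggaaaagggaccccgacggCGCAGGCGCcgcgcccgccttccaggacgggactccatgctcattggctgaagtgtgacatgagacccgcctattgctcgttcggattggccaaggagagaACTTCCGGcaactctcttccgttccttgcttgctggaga
Against DIO, the medians of the log2 fold changes of the 21 genes tested with an NRF1 core were 0.15 for GB-IL and -0.29 for RYGB, and those of the 42 without it were 0.20 and -0.31.

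In DIO liver the subunit genes were expressed at levels that differed widely between and within complexes. Levels between genes are compared per length, as mean CPM per kilobase (kb) of the principal transcript in DIO. The highest level of all was that of *Atp5b*, the catalytic beta subunit of the ATP synthase (622 CPM per kb), followed by *Atp5g3*, which encodes its membrane c subunit (509.7), *Ndufa4* (444) and *Cox4i1* (430), both of complex IV. *Uqcr11* led complex III with 262 CPM per kb, *Ndufb9* led complex I with 259 and *Sdha*, the flavoprotein of succinate dehydrogenase, led complex II with 180.0. *Ndufs1*, the largest subunit of complex I, which carries iron-sulfur clusters, lay at 43.2 CPM per kb. *Ndufb2* had the lowest level per kb of any complex I subunit at 16.3, with a principal transcript annotated at 2413 nt. In plain CPM it was not the lowest, at 39.3 against 27.3 for *Ndufb4*. All 82 genes together took 0.953% to 1.26% of the total count of DIO livers, 0.865% to 1.51% of that of GB-IL livers and 0.841% to 1.20% of that of RYGB livers. Reads could be shared for some of them, since 38 of the 82 had at least 1 stretch of 50 bases in common with the transcript of another gene or pseudogene, and 4 (*Atp5g2*, *Atp5l*, *Atp5l2* and *Cox7c*) shared at least 50% of such stretches. The counts of those genes are uncertain to that extent.

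The level moved together across the subunit genes from liver to liver. Each gene was set against its own mean over the 5 DIO livers, and the median of the 77 ratios was taken in each liver, on the log2 scale. Within DIO it was -0.06, -0.42, 0.22, 0.15 and -0.00 in livers 1 to 5, with liver 2 the lowest DIO liver for 71 of the 77 genes. In GB-IL it was 0.25, 0.62, -0.26 and -0.13 in livers 1 to 4, so that livers 1 and 2 lay above every DIO liver and livers 3 and 4 inside the DIO range. In RYGB it was 0.09, -0.28, -0.31, -0.49 and -0.66 in livers 1 to 5. RYGB liver 1 was the highest of its group for 70 genes, and RYGB liver 5 was the lowest for 62. Genes that move together are not independent of each other, and a count of genes in one direction therefore carries less weight than the same count of independent genes.

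**Figure D1:**
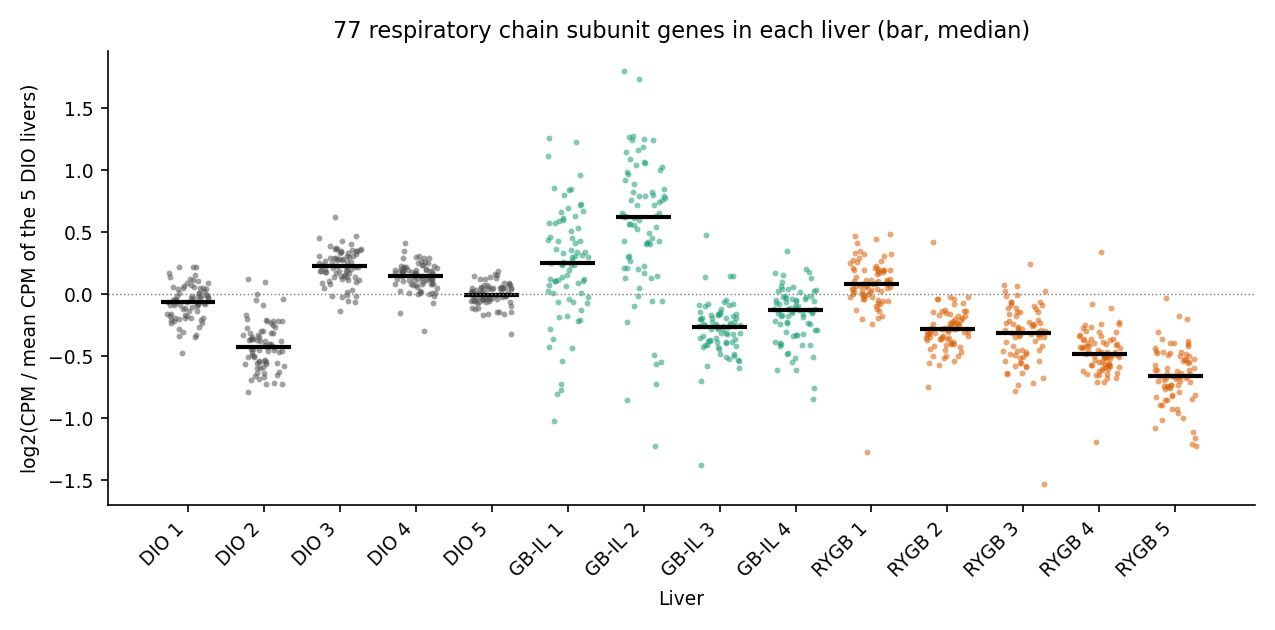
Log2 ratio of the CPM of each of the 77 subunit genes tested (points) to its mean over the 5 DIO livers, for each liver (horizontal axis, coloured by group), with the median as a bar. The medians of GB-IL livers 1 and 2 (0.25 and 0.62) lie above those of all other livers, and 4 of the 5 RYGB medians lie between -0.66 and -0.28, below every DIO median other than that of DIO liver 2 (-0.42).

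Counted gene by gene, 58 of the 77 genes (75.3%) in GB-IL liver 2 and 37 (48.1%) in GB-IL liver 1 lay above every DIO liver, compared with 35.4% and 36.1% of all genes tested. The same count was 1 (1.3%) in GB-IL liver 3 and 4 (5.19%) in GB-IL liver 4, against 25.6% and 15.6% of all genes tested. Below every DIO liver were 63 of the 77 (81.8%) in RYGB liver 5 and 48 (62.3%) in RYGB liver 4, compared with 26.1% and 19.1% of all genes tested, while in RYGB livers 1, 2 and 3 the counts were 4 (5.19%), 21 (27.3%) and 17 (22.1%), against 16.1%, 17.7% and 17.6% of all genes tested. RYGB liver 5 also had the highest endothelial marker sum of all livers (686 CPM over 8 genes, against 178 to 296 CPM in the other 13), together with the highest hepatocyte sum of all (168016 CPM). In bulk liver RNA fewer hepatocytes and less RNA of a kind per hepatocyte cannot be told apart.

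For RYGB the question was whether the respiratory genes of the liver differed after gastric bypass from those of unoperated obese mice on the same diet. Of the 77 genes tested, 76 had a negative log2 fold change and *Atp5s* was the exception. The median was -0.29, compared with 0.01 over all 14252 genes tested, and its values by complex were -0.33 in complex I, -0.24 in complex II, -0.27 in complex III, -0.26 in complex IV and -0.29 in complex V. None of the 77 passed the FDR of 0.05 in edgeR's quasi-likelihood test, as was the case for all genes (0% called), and the smallest adjusted p among them was 0.468. Other tools did call genes in the table as a whole, DESeq2 64 higher and 33 lower and edgeR's exact test 25 higher and 18 lower, with none of the 77 among them. At an unadjusted p below 0.05, 6 of 77 (7.79%) were lower and 0 were higher, compared with 3.36% lower and 5.35% higher over all genes tested. The groups overlapped for every one of the 77, whereas 1.87% of all genes were higher and 1.66% lower without overlap.

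The 6 genes were *Ndufb3*, *Ndufs5*, *Ndufa9*, *Ndufb8*, *Sdhb* and *Atp5sl*. *Ndufb3* (ENSMUSG00000026032, chromosome 1, 58586384 to 58595964 in GRCm38, as for all coordinates here), an accessory subunit in the membrane arm of complex I, had 42.4, 31.0, 46.7, 45.1 and 47.3 CPM in DIO livers 1 to 5, 29.3, 29.1, 32.5 and 41.7 CPM in GB-IL livers 1 to 4 and 35.9, 33.6, 31.8, 27.7 and 20.1 CPM in RYGB livers 1 to 5. Only DIO liver 2 reached down into the RYGB range, which is why the groups overlapped. Its log2 fold change in RYGB was -0.51 (standard error, SE, 0.180, adjusted p = 0.468). *Ndufs5* and *Ndufa9*, accessory subunits of complex I, had log2 fold changes of -0.43 (SE 0.167, adjusted p = 0.515) and -0.36 (SE 0.158, adjusted p = 0.55).

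*Sdhb* (ENSMUSG00000009863, chromosome 4, 140961203 to 140979193) encodes the iron-sulfur subunit that hands the electrons of succinate on to ubiquinone. It had 167, 157, 246, 235 and 208 CPM in DIO and 187, 138, 156, 143 and 90.9 CPM in RYGB. RYGB liver 5 was far below all others, and RYGB liver 1 lay among the DIO livers. The log2 fold change was -0.50 (SE 0.213, adjusted p = 0.547). Its partners *Sdha*, *Sdhc* and *Sdhd* had -0.27, -0.22 and -0.08. *Atp5sl* had -0.49 (SE 0.203, adjusted p = 0.547), with 31.6, 47.8, 43.4, 50.2 and 46.8 CPM in DIO and 41.6, 31.2, 30.2, 34.9 and 18.8 CPM in RYGB.

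Among the other subunits named, *Ndufv1*, which binds NADH, was at 175 ± 40.3 CPM in DIO and at 127 ± 26.3 CPM in RYGB (SD, n = 5 each). Its log2 fold change was -0.46 (SE 0.261). *Uqcrc1*, a core protein of complex III, had 264 ± 60.2 and 194 ± 40.1 CPM, a log2 fold change of -0.45 (SE 0.233), and *Uqcrfs1*, the Rieske iron-sulfur protein, had 174 ± 18.2 and 145 ± 23.7 CPM, a log2 fold change of -0.27. For *Cox4i1* the change was -0.26 (SE 0.292), for *Ndufs1* -0.22 (SE 0.238), for *Atp5a1* and *Atp5b*, the alpha and beta subunits of the ATP synthase, -0.23 and -0.22, and for *Atp5c1*, its gamma subunit, -0.35 (SE 0.173, adjusted p = 0.593). None of these differences passed the test. The largest difference of the 77 was that of *Cox7a1*, an isoform that predominates in heart and muscle, with -0.93 (SE 0.450, adjusted p = 0.582) at 0.458 to 2.04 CPM in the 2 groups.

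The call depended on how livers were weighted. When livers were weighted by their quality in limma's voom, 16 of the 77 passed the FDR of 0.05 and all 16 were lower in RYGB, compared with 5.77% of all genes called lower by that fit. *Ndufb3* had the smallest adjusted p (0.0134, log2 fold change -0.56), and 12 of the 16 were complex I genes. The others were *Sdhb*, *Uqcrc1*, *Cox7a1* and *Atp5sl*. DESeq2 and edgeR's exact test called 0 of the 77 in either direction. The median log2 fold change lay between -0.40 and -0.20 when each liver was left out in turn, -0.40 without RYGB liver 1 and -0.20 without RYGB liver 5, and it was -0.23 after a correction for GC content and length.

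**Figure D2:**
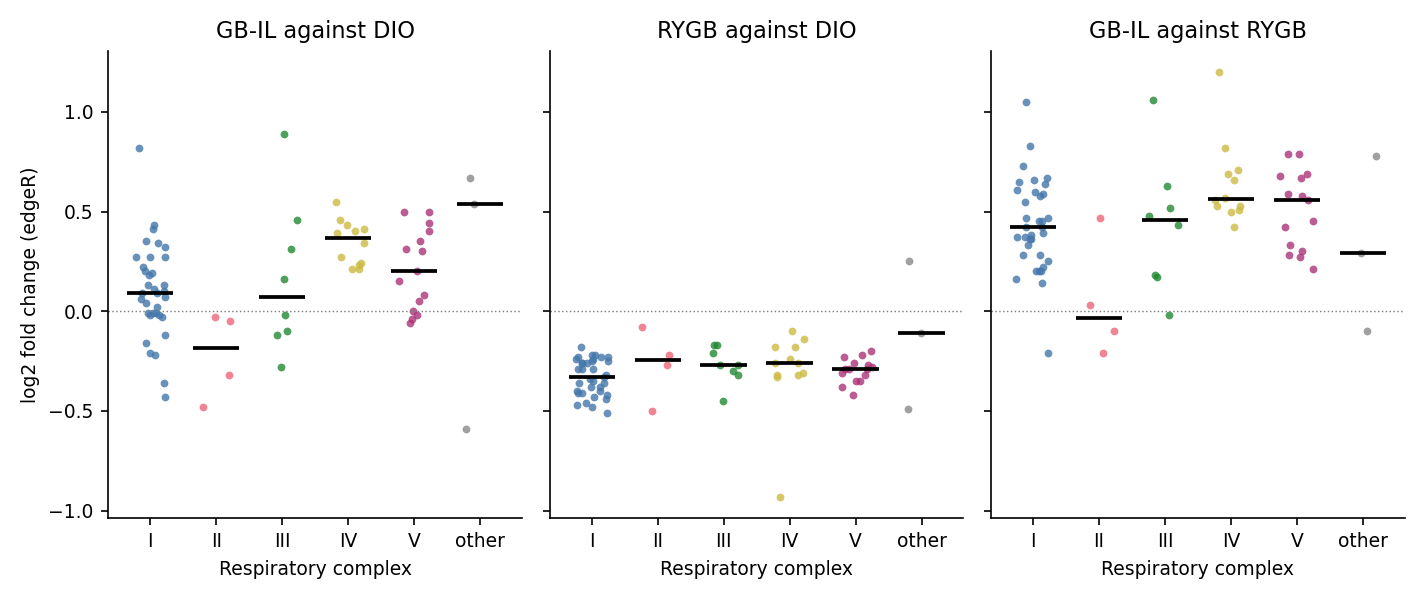
Log2 fold change of each subunit gene tested (points, edgeR) by respiratory complex, in each of the 3 comparisons, with the median as a bar. RYGB against DIO lies below 0 in all complexes (medians -0.33 to -0.24), whereas GB-IL against DIO, with all livers kept, ranges from complex II (median -0.18) to complex IV (median 0.36, or -0.22 without GB-IL livers 1 and 2).

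For GB-IL the question was the same after bile diversion to the ileum. The genes of complex IV, where oxygen is reduced, had higher means in GB-IL for 12 of 12 genes tested (median log2 fold change 0.36, range 0.21 to 0.55), and those of complex V for 11 of 15 (median 0.20). Complex I had 23 of 35 above 0 (median 0.09) and complex III 4 of 8 (median 0.07), while all 4 genes of complex II were below 0 (median -0.18). The higher means rested on GB-IL livers 1 and 2. Without both, the medians were -0.24 in complex I, -0.21 in complex II, -0.21 in complex III, -0.22 in complex IV (1 of 12 above 0) and -0.21 in complex V, and with voom weights that of complex IV was -0.02. These medians by complex were computed after the data were seen. Over the 77 genes the median was 0.16 with 52 above 0, compared with a median of 0.04 over all genes tested. In edgeR's quasi-likelihood test none of the 77 passed the FDR of 0.05, compared with 3.26% of all genes tested. That share was 465 genes with all livers, 0 when any of the 5 DIO livers or GB-IL liver 1 or 2 was left out, and 1 gene with the replicate block. The smallest adjusted p of the 77 was 0.134, for *Atp5sl*. At an unadjusted p below 0.05, 3 of the 77 were higher (*Uqcr10*, *Cox7a2l* and *Atp5s*) and 1 was lower (*Atp5sl*), compared with 16.7% and 6.43% of all genes tested. GB-IL and DIO overlapped for each of the 77, and without overlap 2.67% of all genes were higher and 1.51% lower.

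*Uqcr10* (ENSMUSG00000059534, chromosome 11, 4701973 to 4704342), a small subunit of complex III, had 75.5, 52.7, 98.5, 86.3 and 76.9 CPM in DIO livers 1 to 5 and 187, 259.5, 61.9 and 71.3 CPM in GB-IL livers 1 to 4. GB-IL livers 1 and 2 were far above every DIO liver, and livers 3 and 4 lay within the DIO range. The log2 fold change was 0.89 (SE 0.372, adjusted p = 0.174), and -0.25 without those livers. *Cox7a2l* (ENSMUSG00000024248, chromosome 17, 83501918 to 83517330) had 80.8, 70.4, 112, 106 and 87.5 CPM in DIO and 178, 202, 127 and 75.0 CPM in GB-IL, so that 3 of 4 GB-IL livers were above every DIO liver. Its log2 fold change was 0.67 (SE 0.254, adjusted p = 0.141), and 0.12 without GB-IL livers 1 and 2. *Ndufa2*, an accessory subunit of complex I, followed the same livers with 128, 248, 78.8 and 49.9 CPM in GB-IL, compared with 71.3 ± 19.8 CPM (SD, n = 5) in DIO. Its log2 fold change went from 0.82 to -0.17 without them.

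*Cox4i1* (ENSMUSG00000031818, chromosome 8, 120668222 to 120674207), the usual form of complex IV subunit 4 in liver, had 291, 221, 396, 381 and 334 CPM in DIO and 588, 771, 291 and 257 CPM in GB-IL. Again GB-IL livers 1 and 2 were above every DIO liver and the other two were not. The log2 fold change was 0.55 (SE 0.308, adjusted p = 0.282), and it was -0.27 without GB-IL livers 1 and 2 (adjusted p = 0.926). *Cox6a1*, another complex IV subunit, had 353, 351, 157 and 164 CPM in GB-IL and 134 to 238 CPM in DIO. Its log2 fold change was 0.34 (SE 0.288), and -0.35 without those livers. *Cox7b* had the smallest p in complex IV, with 0.41 (SE 0.201, adjusted p = 0.239), and was at 0.00 without GB-IL livers 1 and 2.

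A few subunit genes had the opposite order, low in GB-IL livers 1 to 3 and high in liver 4. *Sdha* (ENSMUSG00000021577, chromosome 13, 74322254 to 74350280) had 509, 524, 504, 522 and 549.9 CPM in DIO and 299, 289, 321 and 590.3 CPM in GB-IL. The 5 DIO livers were close together (522 ± 17.7 CPM, SD), 3 GB-IL livers lay far below them and liver 4 lay above them all. The log2 fold change was -0.48 (SE 0.237, adjusted p = 0.239), and -0.21 without GB-IL livers 1 and 2. *Ndufs1* (ENSMUSG00000025968, chromosome 1, 63143596 to 63176833) had 107, 121, 103, 112 and 123 CPM in DIO and 68.4, 48.5, 76.0 and 144 CPM in GB-IL, the same order of livers. Its log2 fold change was -0.43 (SE 0.254, adjusted p = 0.31), and -0.06 without the same livers. *Sdhc*, a membrane anchor of complex II, and *Uqcrc2*, a core protein of complex III, had log2 fold changes of -0.32 (SE 0.161) and -0.28 (SE 0.194).

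Subunits of a single complex thus stood in unlike mRNA ratios. The CPM of *Sdha* divided by that of *Sdhb* was 2.05 to 3.33 in DIO and 2.45 to 3.42 in RYGB, but 1.25, 1.30, 2.11 and 3.29 in GB-IL livers 1 to 4. *Ndufs1* over *Ndufv1* was 0.492 to 0.951 in DIO and 0.285, 0.159, 0.612 and 1.08 in GB-IL. Both ratios in GB-IL livers 1 and 2 were below the lowest of DIO and RYGB. In contrast, *Atp5a1* over *Atp5b* stayed between 0.749 and 0.866 in all 14 livers, and its lowest value was that of GB-IL liver 2. These pairs were chosen after their values were seen, and no test was made.

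**Figure D3:**
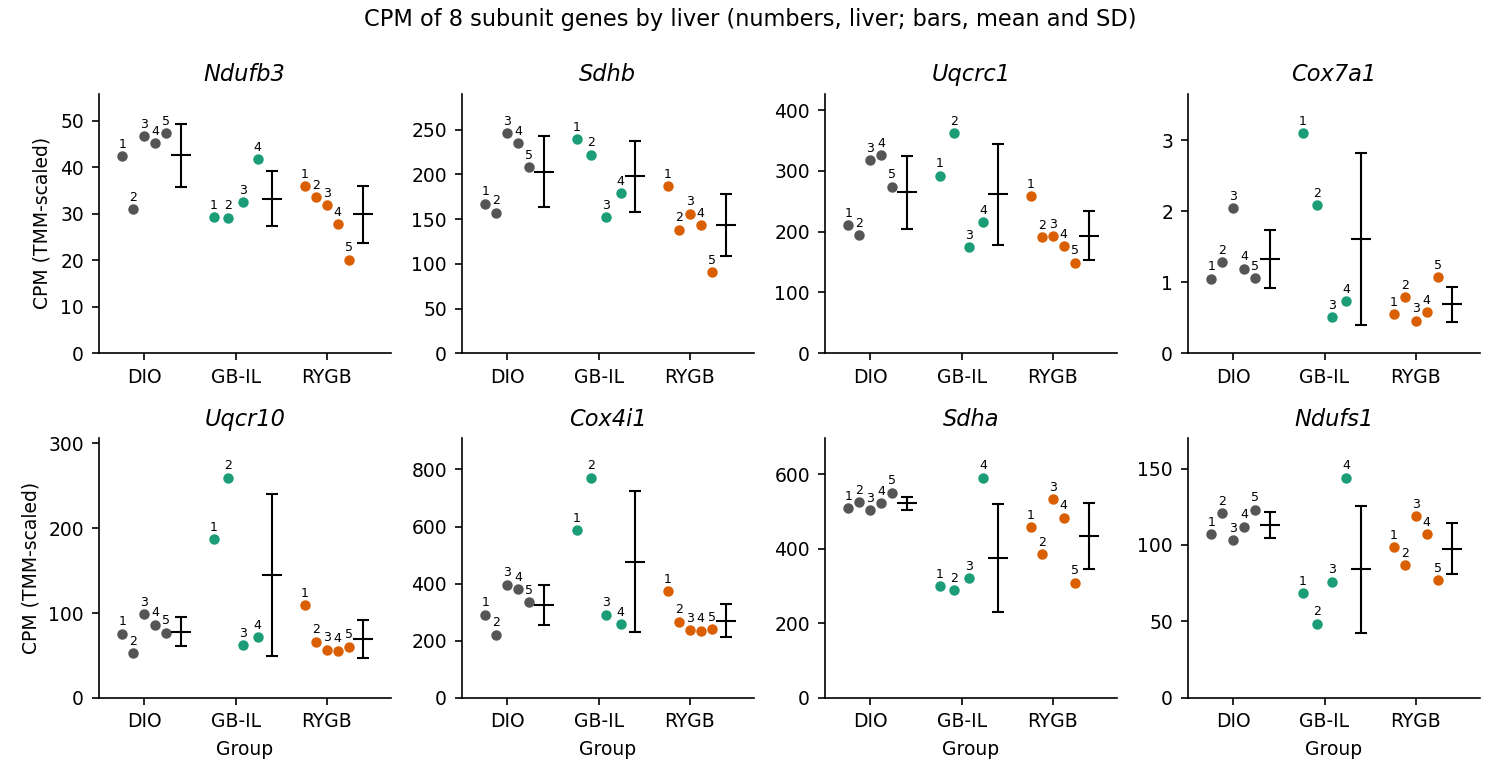
CPM of 8 subunit genes in each liver (points, numbered by liver within DIO, GB-IL and RYGB), with the mean and SD of each group. *Uqcr10* and *Cox4i1* are highest in GB-IL livers 1 and 2, *Sdha* and *Ndufs1* are lowest in GB-IL livers 1 and 2 and highest in GB-IL liver 4, and *Ndufb3* and *Sdhb* are lowest in RYGB liver 5.

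Transcript length was a feature that the rule did not use. The principal transcripts of the 82 genes had a median length of 772 nt, compared with 2751 nt for all genes tested. Of the 59 genes tested that were shorter than 1500 nt, 44 were above 0 in GB-IL compared with DIO (median 0.21), whereas of the 18 longer ones 8 were above 0 and 10 below (median -0.01). This length was chosen after the values were seen, and all livers were kept. Without GB-IL livers 1 and 2, 3 of the 77 genes were above 0 and 74 below, and no split by length was made there. With all livers, the log2 fold changes of the 77 genes in GB-IL had a Pearson correlation of -0.455 (Spearman -0.39) with log2 length. Their correlation with GC content was 0.144. The values over 14115 genes tested were -0.0915 and 0.157. In RYGB compared with DIO the shorter and the longer genes had nearly the same medians (-0.29 and -0.26). The Pearson correlation across the 77 was 0.105 with log2 length and -0.361 with GC content. Over the 14115 genes tested it was 0.172 with log2 length and -0.0324 with GC content. Genes are not replicates, and these coefficients describe the same 14 libraries. With counts corrected for GC content and length, the median of the 77 genes in GB-IL was 0.05, with 45 above 0. That correction used the merged exon length of each gene and the GC content of its longest transcript, not those of the principal transcript. The part that transcript length, GC content or RNA quality had in these differences was not tested.

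**Figure D4:**
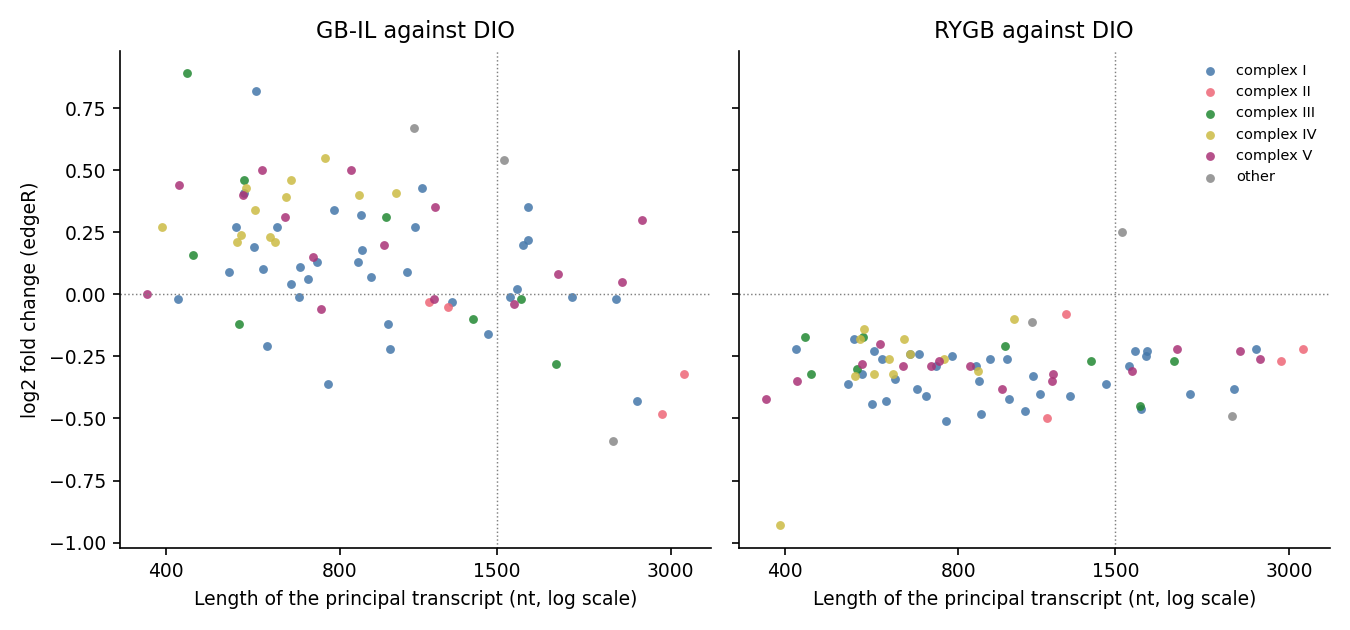
Log2 fold change of the 77 subunit genes (points, coloured by complex) against the length of the principal transcript on a log axis, for GB-IL against DIO and RYGB against DIO, with dotted lines at 0 and at 1500 nt. In GB-IL the genes of 1500 nt or longer reach the lowest values (*Atp5sl*, -0.59, and *Sdha*, -0.48) with all livers kept, whereas in RYGB short and long genes have similar values.

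The GB-IL comparison depended on single livers. Without GB-IL liver 4, 4 of the 77 were called higher (*Uqcr10*, *Ndufa2*, *Cox7a2l* and *Atp5g2*) and 2 lower (*Sdha* and *Ndufs1*), compared with 15.4% of all genes called higher and 9.27% called lower in that fit. *Ndufs1* then had a log2 fold change of -0.82 (SE 0.193, adjusted p = 0.00936) and *Sdha* of -0.79 (SE 0.195, adjusted p = 0.0119). Without GB-IL liver 1, the liver with muscle transcripts, the median of the 77 was 0.11, with 51 above 0. Without GB-IL liver 2 it was -0.08, and without GB-IL livers 1 and 2 it was -0.22, with 3 above 0 and 74 below. With voom and sample quality weights it was -0.11, with 18 above 0. The direction for the group as a whole was therefore set by GB-IL livers 1 and 2, the same livers in which macrophage markers summed to 1177 and 1019 CPM. That sum was also high in GB-IL liver 3 (1624 CPM), where the subunit genes were low, and was 259 to 441 CPM in DIO. Cholangiocyte markers summed to 311, 250.4, 221 and 72.0 CPM in GB-IL livers 1 to 4 and to 47.4 to 76.0 CPM in DIO, and stellate and fibroblast markers to 818 CPM in GB-IL liver 1 and to 153 to 293 CPM in the other GB-IL and the DIO livers. RNAs without a poly(A) tail, which an mRNA kit would deplete, summed to 194 CPM in GB-IL liver 1, to 93.9 CPM in liver 2 and to 51.4 to 114 CPM in DIO. The part of these cells, or of the library kit, in the result was not tested.

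The direct comparison of GB-IL with RYGB asked whether both operations left the respiratory genes at the same level. It shares the GB-IL and RYGB livers with the comparisons above. Of the 77 genes, 72 were higher in GB-IL, with a median log2 fold change of 0.47 (0.03 over all genes tested). By complex it was 0.42 in complex I, -0.03 in complex II, 0.46 in complex III, 0.57 in complex IV and 0.56 in complex V. None passed the FDR of 0.05 in edgeR's quasi-likelihood test, as for all genes (0% called), with a smallest adjusted p of 0.123 for *Cox7a2l*. Over all genes DESeq2 called 654 higher and 191 lower, the exact test 565 and 113 and voom weights 111 and 4, with none of the 77 among them. At an unadjusted p below 0.05, 30 of the 77 (39.0%) were higher in GB-IL and 0 lower, compared with 15.3% and 6.77% of all genes tested. Of these 30, 10 were among the 12 complex IV genes. The count of 30 became 0 without GB-IL livers 1 and 2 and 1 without GB-IL liver 2 alone. It was 1 with voom weights, 7 with the replicate block and 45 without GB-IL liver 3. With an RYGB liver left out, the count lay between 11 (without RYGB liver 5) and 50 (without RYGB liver 1). The groups overlapped for every gene, whereas 1.27% of all genes tested were higher and 1.57% lower without overlap.

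*Uqcr10* had 109, 66.1, 56.7, 55.6 and 60.2 CPM in RYGB livers 1 to 5, below GB-IL livers 1 and 2 in every case, and a log2 difference of 1.06 (SE 0.373, adjusted p = 0.146). *Atp5o*, which encodes a stalk protein of the ATP synthase, had 233, 322, 127 and 120.1 CPM in GB-IL and 151, 115, 120.2, 101 and 93.6 CPM in RYGB. Livers 3 and 4 of GB-IL fell among those of RYGB. The log2 difference was 0.79 (SE 0.281, adjusted p = 0.147). Without GB-IL livers 1 and 2 it was 0.07, and that of *Uqcr10* was -0.08. *Atp5h* and *Uqcrh*, subunits of complexes V and III whose promoters are shown above, differed by 0.59 (SE 0.244) and 0.63 (SE 0.240), with 195, 242, 117 and 123 CPM of *Atp5h* in GB-IL and 155, 107, 118, 93.4 and 86.7 CPM in RYGB. *Cox7a2* and *Ndufs4*, an accessory subunit needed for an active complex I, had log2 differences of 0.69 (SE 0.243, adjusted p = 0.146) and 0.58 (SE 0.203, adjusted p = 0.145), which were 0.13 and 0.22 without those livers. The highest value was 1.20 for *Cox7a1* (SE 0.469), at means of only 1.61 CPM in GB-IL and 0.689 CPM in RYGB. The lowest was -0.21, for *Ndufs1* and *Sdha*. Without GB-IL livers 1 and 2 the differences were -0.16 for *Cox7a1*, 0.15 for *Ndufs1* and 0.05 for *Sdha*.

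Without GB-IL liver 4, 14 of the 77 were called higher in GB-IL than in RYGB and 1 lower (*Ndufs1*, log2 difference -0.61, adjusted p = 0.0382), compared with 13.4% and 8.09% of all genes tested. Complex IV and V supplied 8 of the 14. Without GB-IL livers 1 and 2 the median of the 77 was 0.07, with 56 above 0 and 21 below. By complex the medians were then between 0.04 and 0.08. GB-IL livers 3 and 4 alone thus lay close to RYGB in these genes.

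Several subunits exist as isoforms of which one is typical of liver and the other of muscle or other tissue. *Cox6a1* and *Cox8a* were abundant in all livers, whereas their muscle counterparts were nearly absent from all but 1. *Cox6a2* (chromosome 7, 128205435 to 128206387) had 555 counts in GB-IL liver 1 and 0 to 2 counts in each of the other 13 livers. *Cox8b* (chromosome 7, 140898945 to 140900446) had 125 counts in GB-IL liver 1 and 0 to 4 in the others. GB-IL liver 1 was the library with muscle transcripts, among them 11540 counts of *Acta1* and 1934 of *Ckm*, where the other livers had at most 21 and 2. With all genes kept, *Cox6a2* was called higher in GB-IL than in DIO (adjusted p = 0.0357, log2 fold change 7.24), a call that rests on that liver alone. *Cox7a1*, the muscle form paired with *Cox7a2*, had 59 counts in GB-IL liver 1, 37 in liver 2 and 10 to 40 in the others.

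*Cox4i2*, an isoform known from lung and from vessel-associated cells, had 27 counts in RYGB liver 5, the liver with the highest endothelial sum, and 0 to 4 counts in the other 13 livers. The part of endothelial cells in this was not tested. *Ndufa4l2*, a relative of *Ndufa4* under another symbol, was at 71.3 CPM in that liver and at 0.986 to 2.71 CPM in the others. *Cox6b2*, known from testis, had 1 to 13 counts per liver, and the pseudogene *Atp5l2* 0 to 8. In *Atp5g1*, *Atp5g2* and *Atp5g3*, which encode the same mature c subunit with different targeting sequences, the levels in DIO were 42.4, 46.6 and 509.7 CPM per kb. Their principal transcripts had 2675, 586 and 718 nt, and their mean CPM in DIO were 113, 27.3 and 366. Their log2 fold changes were 0.30, 0.50 and 0.15 in GB-IL and -0.26, -0.20 and -0.29 in RYGB, compared with DIO, and none passed the test.

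**Figure D5:**
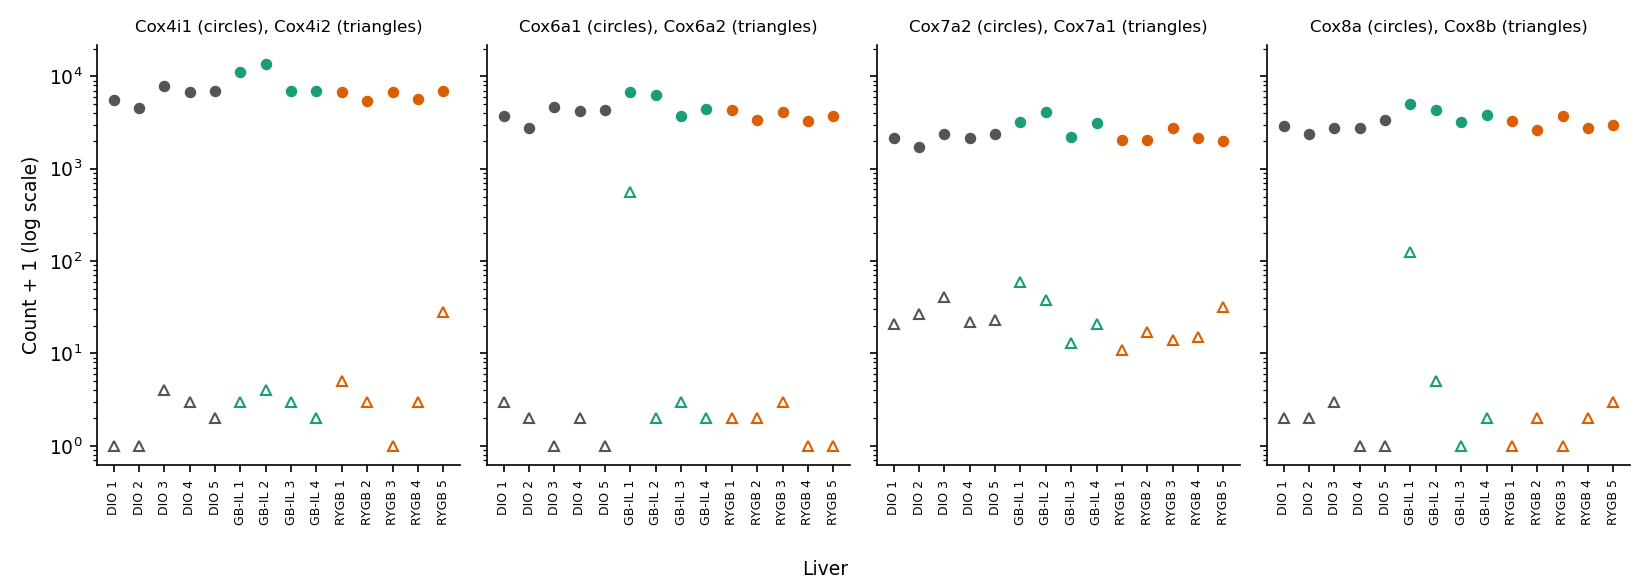
Counts plus 1 (log axis) of 4 pairs of complex IV isoforms in the 14 livers, with the form usual in liver as filled circles and the other form as open triangles. *Cox6a2* (555 counts) and *Cox8b* (125 counts) stand out in GB-IL liver 1 and *Cox4i2* (27 counts) in RYGB liver 5.

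With all livers kept, the subunits encoded by mitochondrial DNA did not follow the nuclear ones. The 13 genes together made up 7.06% ± 1.41 of the total count in DIO (SD, n = 5), 5.76% ± 2.68 in GB-IL (SD, n = 4) and 7.76% ± 0.681 in RYGB (SD, n = 5). In GB-IL livers 1 to 4 the values were 6.41%, 3.92%, 3.44% and 9.27%, so that GB-IL liver 2, highest for the nuclear genes, was among the lowest here. In RYGB all 5 livers lay between 6.92% and 8.5%, inside the DIO range of 5.51% to 9.12%. None of the 3 differences was significant in exact two-sided permutation tests (p = 0.413 and 0.357 for GB-IL and RYGB, each against DIO, and 0.175 between the operations, all 0.413 after adjustment over the 3). In the edgeR fit 12 of the 13 genes were tested and 0 were called in any comparison. In GB-IL compared with DIO 2 were above 0 and 10 below (median -0.29), and at an unadjusted p below 0.05 there were 0. Without GB-IL livers 1 and 2 the medians of these genes and of the 77 nuclear genes were both -0.22. Of the mitochondrially encoded genes 1 was then above 0 and 11 below. In RYGB compared with DIO 8 were above 0 and 4 below (median 0.11). *mt-Nd4l*, which overlaps its neighbour, had a count in a single liver. The gene with the smallest p was *mt-Atp8* in GB-IL (log2 fold change -0.87, SE 0.488, and -0.37 without GB-IL livers 1 and 2) and *mt-Nd6* in RYGB (0.40, SE 0.259).

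The other genes of the pathway were followed through lists, each described by its counts. Of 39 assembly factors tested, 12 were above 0 in GB-IL and 2 in RYGB compared with DIO, and the median was -0.21 in both. *Uqcc1*, an assembly factor of complex III, had the smallest p in GB-IL (log2 fold change -0.57, SE 0.206, adjusted p = 0.126, and -0.26 without GB-IL livers 1 and 2). *Ecsit*, which takes part in complex I assembly, had it in RYGB (-0.40, SE 0.175). Without GB-IL livers 1 and 2 the median of the assembly factors in GB-IL was -0.16, and that of the subunit genes went from 0.16 to -0.22. The difference between these sets of genes was not tested. Of 18 genes for electron carriers and ubiquinone synthesis, 7 were above 0 in GB-IL (median -0.22) and 2 in RYGB (median -0.17). *Gpd2*, mitochondrial glycerol phosphate dehydrogenase, had the smallest p of this list in GB-IL. It was at 33.1 to 43.3 CPM in DIO and at 6.83, 7.17, 15.7 and 40.3 CPM in GB-IL livers 1 to 4. Its log2 fold change was -1.10 (adjusted p = 0.142), and -0.44 without GB-IL livers 1 and 2. In a short list of subunits and related genes under other symbols, 5 of 6 were above 0 in GB-IL and 1 in RYGB. The 1 in RYGB was *Ndufa4l2*, which was at 71.3 CPM in RYGB liver 5. *Atpif1*, the inhibitor of the ATP synthase, had the smallest p in GB-IL (0.73, SE 0.285, adjusted p = 0.153, and 0.34 without GB-IL livers 1 and 2). Of 14 citric acid cycle enzymes, 4 were above 0 in GB-IL and 2 in RYGB. *Fh1*, fumarate hydratase, had 688, 734, 311 and 193 CPM in GB-IL and 209 to 303 CPM in DIO (log2 fold change 0.89, adjusted p = 0.141, and -0.07 without GB-IL livers 1 and 2).

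*Ppargc1a*, the coactivator of mitochondrial biogenesis, had 9.79, 18.5, 8.14, 7.64 and 12.1 CPM in DIO, 27.2, 43.7, 12.9 and 11.7 CPM in GB-IL and 13.6, 8.68, 18.6, 17.0 and 26.1 CPM in RYGB. GB-IL livers 1 and 2 were again the highest of all. Against DIO it differed on the log2 scale by 1.08 (SE 0.401, adjusted p = 0.135) in GB-IL, or 0.11 without those livers, and by 0.58 in RYGB (SE 0.380, adjusted p = 0.697), while the subunit genes had medians of 0.16 and -0.29. *Esrra*, the ERR protein that works with it, had 0.04 and -0.49, *Ppargc1b* -0.11 and -0.32, and *Tfam*, which packs and transcribes mitochondrial DNA, -0.25 and -0.17. *Esrrg* had the smallest p of the 15 regulators tested in GB-IL (-1.75, SE 0.616, adjusted p = 0.121, and -1.07 without GB-IL livers 1 and 2). It was at 0.226 to 0.368 CPM in GB-IL livers 1 to 3 and at 2.47 CPM in liver 4. *Esrrb* had the smallest p in RYGB (-1.18, SE 0.370, adjusted p = 0.425). Of the 7 carriers, porins and uncoupling proteins tested, 6 were above 0 in GB-IL and 1 in RYGB. *Slc25a4*, the nucleotide carrier form abundant in muscle, had 74.3, 18.5, 12.4 and 6.27 CPM in GB-IL and 3.80 to 6.46 CPM in DIO (log2 fold change 2.47, adjusted p = 0.0503, and 0.86 without GB-IL livers 1 and 2), with its highest value in the liver that held the muscle transcripts, and *Vdac1* had the smallest p of this list in RYGB (-0.28, adjusted p = 0.628). *Coq2*, of ubiquinone synthesis, and *Idh3b*, of the citric acid cycle, had the smallest p of their lists in RYGB (-0.34 and -0.35, adjusted p = 0.547 and 0.573). In edgeR's quasi-likelihood test no gene of these lists passed the FDR of 0.05 in any of the 3 comparisons. Other fits did call some. In GB-IL against DIO, *Slc25a4* passed with DESeq2 (adjusted p = 0.00221), the exact test (0.00406), RLE scaling (0.0497), upper quartile scaling (0.0464) and no filter on low counts (0.0445), *Esrrg* with DESeq2 (0.0375), *Gpd2* with voom weights (0.0442) and *Ecsit* with the GC content and length correction (0.0492). Voom weights called 1 list gene higher and 19 lower in RYGB than in DIO, where that fit called 867 higher and 823 lower of all 14252 genes. *Coq2*, *Ecsit*, *Esrra*, *Esrrb*, *Idh3b*, *Uqcc1* and *Vdac1* were among the lower ones. DESeq2 called *Ucp2* between the operations. Without GB-IL liver 4, 7 list genes were called higher and 22 lower in GB-IL than in DIO, and 7 and 13 in GB-IL than in RYGB. Of all genes that fit called 15.4% higher and 9.27% lower against DIO, and 13.4% and 8.09% against RYGB.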

How the data were processed

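Livers of 14 mice were sequenced, each as a separate library. Per the labels and the study's methods, the authors amplified the RNA, mapped reads to mm10 (TopHat 2) and made gene counts in HTSeq, and the deposited values are those raw counts. For counting options and annotation, the entry is "not given in the sources used here". An mRNA and a total RNA kit are both named in the labels without being tied to livers, so library kit could not enter the fit. Replicates were separate mice.

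Genes were filtered with edgeR's filterByExpr (14252 of 25212 kept), scaled by TMM and tested by the quasi-likelihood F-test (edgeR 4.0.16, R 4.3.3) with 1 mean per group over all 14 livers and Benjamini-Hochberg adjustment over all genes tested (FDR 0.05). Alternatives used DESeq2 1.42.0 and limma 3.58.1. CPM are of the TMM-scaled library, except for marker sums and shares, which are of the total count. Total counts of 18223135 to 28656631 per liver limit the precision of low genes.

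The members, lists and tests were chosen with earlier results of these data known. Genes named were the member of each complex highest per kb in DIO and the members with the smallest p or largest change. Also named were a set of catalytic, electron-carrying and other subunits and the isoform sets. From each pathway list the gene with the smallest p was named, with 4 regulators. *Cox7b2* and *Cox8c* were not analysed here. Transcript lengths and coordinates are from GENCODE M21 (GRCm38).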

Additional observations from a re-analysis of the deposited data

Results flagged for a closer look

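In groups of 4 or 5 livers, 12 of 114 tests found a liver whose gap to the nearest of its group passed Dixon's critical value. Chance passes about 1 in 20 independent tests. Subunit genes move together from liver to liver, so no excess over chance can be read from this count. GB-IL liver 1 stood apart with 555 counts of *Cox6a2* (next 2) and 125 of *Cox8b* (next 4), and GB-IL liver 4 with 590.3 CPM of *Sdha* (next 321). RYGB liver 1 was the highest of its group for *Cox4i1* (373 CPM, next 267), *Ndufv1* (174 CPM, next 120.2), *Uqcr10* (109 CPM, next 66.1) and *Atp5g2* (34.1 CPM, next 23.7). RYGB liver 5 was the highest for *Cox4i2* (27 counts, next 4) and *Cox6b2* (13 counts, next 4). DIO liver 2 was the lowest of its group for *Ndufa4* (186 CPM, next 237) and *Cox7a2* (83.8 CPM, next 113), and DIO liver 3 the highest for *Cox7a1* (2.04 CPM, next 1.28).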

How the results depend on the processing

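No subunit gene was called by other scalings, filters by mean count, robust estimation, the fit of the compared groups alone, DESeq2, the exact test or the GC content and length correction. Sample quality weights called 16 lower in RYGB than in DIO, and keeping all genes with a count called 1 higher in GB-IL (*Cox6a2*). Leaving out single livers, the calls ranged from 0 to 4 higher and 0 to 2 lower in GB-IL against DIO, were 0 in RYGB against DIO, and ranged from 0 to 14 higher and 0 to 1 lower in GB-IL against RYGB, the calls arising only without GB-IL liver 4. The causes were not tested.

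A gene was counted as reversed where its log2 fold change had opposite signs and exceeded 1 SE in both fits. Only a selection of genes was checked by this rule, so reversals among the remaining subunit genes were not counted. Of the genes checked, *Cox4i1* (-0.27) and *Cox6a1* (-0.35) against DIO and *Ppargc1a* against RYGB (-0.48) met the rule without GB-IL livers 1 and 2. Ndufa4l2 in GB-IL against RYGB ranged from -3.38 to 0.44 with a liver left out, the positive value being that without RYGB liver 5. The summed mitochondrially encoded CPM in GB-IL minus RYGB ranged from -31759 (exact permutation p = 0.0357, unadjusted, without GB-IL liver 4) to -12312. That p is the smallest that the two-sided test can give with so few livers, and it belongs to the extreme of these fits. The replicate numbers did not pair the livers, which were separate mice (correlations of same-numbered livers -0.381 to 0.381). With the replicate block the medians were 0.08 (GB-IL) and -0.33 (RYGB) against DIO and 0.43 between the operations, and 0 subunit genes were called. Low isoform counts limit what can be said of them.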
